A study of Rattus norvegicus with 12 samples.

Results

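The strain difference in the response to restraint was measured in rat whole blood. It is the change after chronic restraint stress (CRS) in WKY minus the change after CRS in F344, so a positive log2 value means that expression moved further upward, or less far downward, in WKY. All 12 libraries of the series entered it, in 4 groups of 3: unstressed F344, stressed F344, unstressed WKY and stressed WKY. The rats were adult males of 2 inbred strains, F344 (Fischer) and WKY (Wistar Kyoto), aged 70 to 90 days. Every rat had contextual fear conditioning and 4 weeks in its home cage. Stressed rats next spent 2 hours a day in restraint for 2 weeks while unstressed rats stayed undisturbed, and all 4 groups were conditioned again and killed 24 hours afterwards. The unstressed groups are therefore controls for restraint, not rats without an aversive experience. Blood was taken into RNA-stabilising tubes at decapitation and sequenced as whole blood. Whether each library is a different animal is not stated in the labels, and p-values here speak of library-to-library spread.

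Restraint activates the hypothalamic-pituitary-adrenal axis, which releases corticosterone. Corticosterone acts on leukocytes through the glucocorticoid receptor, induces genes such as Fkbp5, Tsc22d3 and Per1, dampens inflammatory genes and moves lymphocytes out of the circulation. WKY rats are widely used as a strain with strong behavioural responses to stress, and F344 rats are known for a strong corticosterone response. In bulk blood, fewer cells of a type and less RNA per cell cannot be told apart.

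Genes received 1691956 to 3846263 counts per library, and 88.9% to 94.6% of these fell on the 3 most abundant features. All other genes shared 90796 to 220499 counts per library in unstressed F344, 281942 to 419789 in stressed F344, 170507 to 347841 in unstressed WKY and 232721 to 319116 in stressed WKY. Unstressed F344 replicates 2 and 3 were the least covered. In them 1063 and 465 genes had at least 10 counts, against 1431 to 2982 in the other libraries, and 1 count was worth 0.607 and 1.14 CPM (read counts brought to one library total with TMM scaling), against 0.201 to 0.431. The mean of these remaining counts was higher after CRS by 180023 in F344 and by 34945 in WKY, a difference of -145078 (two-sided exact permutation within strains, p = 0.21, adjusted 0.36 over 3 technical values). The smallest p the design allows is 0.005. This permutation assumes no CRS effect in either strain, so its p does not test the strain difference alone. In these counts the F344 groups did not overlap and the WKY groups did, so depth moved with CRS in F344. Blood was recognisable in every group: globin took 2.1% to 5.21% of gene counts, whereas the summed muscle markers stood at 3.04 to 13.3 CPM and the summed brain markers at 6.51 to 16 CPM.

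No gene passed the test of the strain difference. The edgeR quasi-likelihood test called 0 of 2781 genes at an adjusted p under 0.05 (0% of those tested), with a smallest adjusted p of 0.0694. At an unadjusted p under 0.05 it listed 106 genes (3.81%), of which 58 (2.09%) had the higher response in WKY and 48 (1.73%) the lower, where 139.05 would be listed by chance. Without unstressed F344 replicate 1 the list held 257 genes. DESeq2 called 0 genes with 69 at an unadjusted p under 0.05, and limma-voom called 0 with 169. The median standard error of a gene's difference was 0.644 on the log2 scale, and the median 95% interval reached 1.30 to either side of the estimate. The test of CRS within each strain, in the same fit, likewise called 0 genes in F344 (131 at an unadjusted p under 0.05) and 0 in WKY (161).

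The 106 genes were split by the sign of their change within each strain, as a description of what the contrast selects. Of these, 101 (95.3%) had changes of opposite sign in the strains, against 1297 of all 2781 tested genes (46.6%). Opposite signs widen the contrast, so the selection itself raises this share. The other 5 had estimates of the same sign and unequal size. Iscu, Rbsn and Siglec5 had the larger estimate in WKY, and Oasl and Timm10b the larger in F344. The smaller estimate lay well within its SE of 0 for Siglec5 (-0.05 in F344, SE 0.483) and Oasl (0.14 in WKY, SE 0.496). For these genes a shared direction cannot be read from it. The direction of the strain gap itself, WKY against F344, was opposite before and after CRS for 95 of the 106 (89.6%) and for 1113 of all tested genes (40.0%). The contrast equals the gap after CRS minus the gap before it, so the selection raises this share too.

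**Figure D1:**
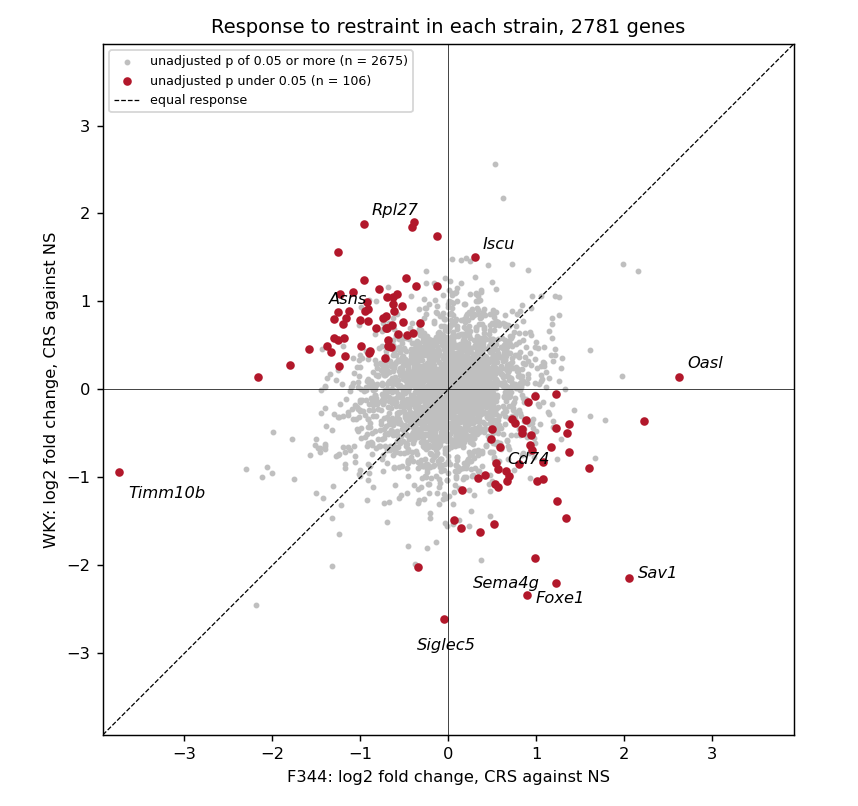
Log2 fold change after CRS against no stress (NS) in F344 (x axis) and in WKY (y axis) for the 2781 tested genes, 1 point each, with the 106 genes at an unadjusted p under 0.05 for the strain difference in red and the dashed line at equal response. Sav1, Foxe1 and Sema4g lie farthest below that line, and 101 of the 106 lie in the quadrants of opposite sign.

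Sav1 had the smallest p. It encodes the scaffold protein Salvador, which holds together the kinases of the Hippo pathway, a brake on cell proliferation and organ growth. Its levels were 1.92, 0 and 3.40 CPM in unstressed F344 replicates 1 to 3 and 7.02, 7.80 and 5.85 CPM in stressed F344. They were 2.29, 30.9 and 15.4 CPM in unstressed WKY and 4.56, 2.16 and 3.59 CPM in stressed WKY. Every stressed F344 library lay above every unstressed one. The WKY groups overlapped, because unstressed replicate 1 stood with the stressed libraries while replicates 2 and 3 stood far above them. The change was log2 2.06 in F344 and -2.14 in WKY, which gave a difference of -4.20 (SE 0.870, 95% interval -5.96 to -2.44; edgeR adjusted p = 0.0694). Over the alternatives it ranged from -4.76 to -3.27, and its adjusted p from 2.15e-07 with no filter on low counts to 0.998 with DESeq2. Without unstressed WKY replicate 1 the adjusted p was 5.73e-05, and without stressed WKY replicate 3 it was 0.0459.

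The reference sequence around the Sav1 start shows what lies at the promoter of the gene with the smallest p. It spans chr6:94236049-94236348 on the minus strand in GRCr8, from 250 bases before to 50 bases after the start, per RefSeq. The capitals mark GGGCGG, the GC box bound by Sp-family factors, searched on both strands. It occurs 3 times, at 194, 81 and 49 bases before the start.

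Sav1: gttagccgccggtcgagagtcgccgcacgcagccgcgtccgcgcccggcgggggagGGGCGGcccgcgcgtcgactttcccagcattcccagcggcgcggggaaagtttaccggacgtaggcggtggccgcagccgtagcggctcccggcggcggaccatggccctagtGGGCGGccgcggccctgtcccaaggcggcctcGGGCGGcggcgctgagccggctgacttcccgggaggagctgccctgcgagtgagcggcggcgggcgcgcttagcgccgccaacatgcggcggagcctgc

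The GC box is common: it is in 34.9% of 27457 rat promoters of this length and in 66.0% of the 2166 tested genes that have an entry, and in 70 of the 88 promoters found for the 106 genes (79.5%). The sequence is that of the reference strain, not of F344 or WKY, and the match is a description of letters only.

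Foxe1 and Sema4g followed Sav1. Foxe1, a forkhead transcription factor best known from thyroid development, stood at 4.11, 8.49 and 7.94 CPM in unstressed F344 and 10.8, 13.2 and 11.3 CPM in stressed F344. In WKY it stood at 2.74, 36.1 and 19.6 CPM without stress and 5.58, 3.02 and 2.28 CPM after CRS. The pattern over libraries was that of Sav1, with the F344 groups apart and unstressed WKY replicate 1 low. The difference was -3.23 (SE 0.734; edgeR adjusted p = 0.127, 2.39e-06 to 0.998 over the alternatives; 7.66e-05 without unstressed WKY replicate 1). Sema4g, a membrane-bound semaphorin, averaged 4.93 CPM, under the 5 CPM asked of named genes, and was chosen after its values were seen. It stood at 0.548, 9.10 and 2.27 CPM in unstressed F344, 4.01, 11.9 and 9.27 CPM in stressed F344, 4.12, 5.21 and 9.22 CPM in unstressed WKY and 1.52, 0.431 and 1.63 CPM in stressed WKY. Here the WKY groups did not overlap and the F344 groups did. The difference was -3.43 (SE 0.836; edgeR adjusted p = 0.201, 0.000492 to 0.998 over the alternatives; 0.00198 without unstressed F344 replicate 2, where the difference was -5.32). Every other gene had an adjusted p of at least 0.993 in edgeR, so the unadjusted p given for the genes below ranks them and does not call them.

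**Figure D2:**
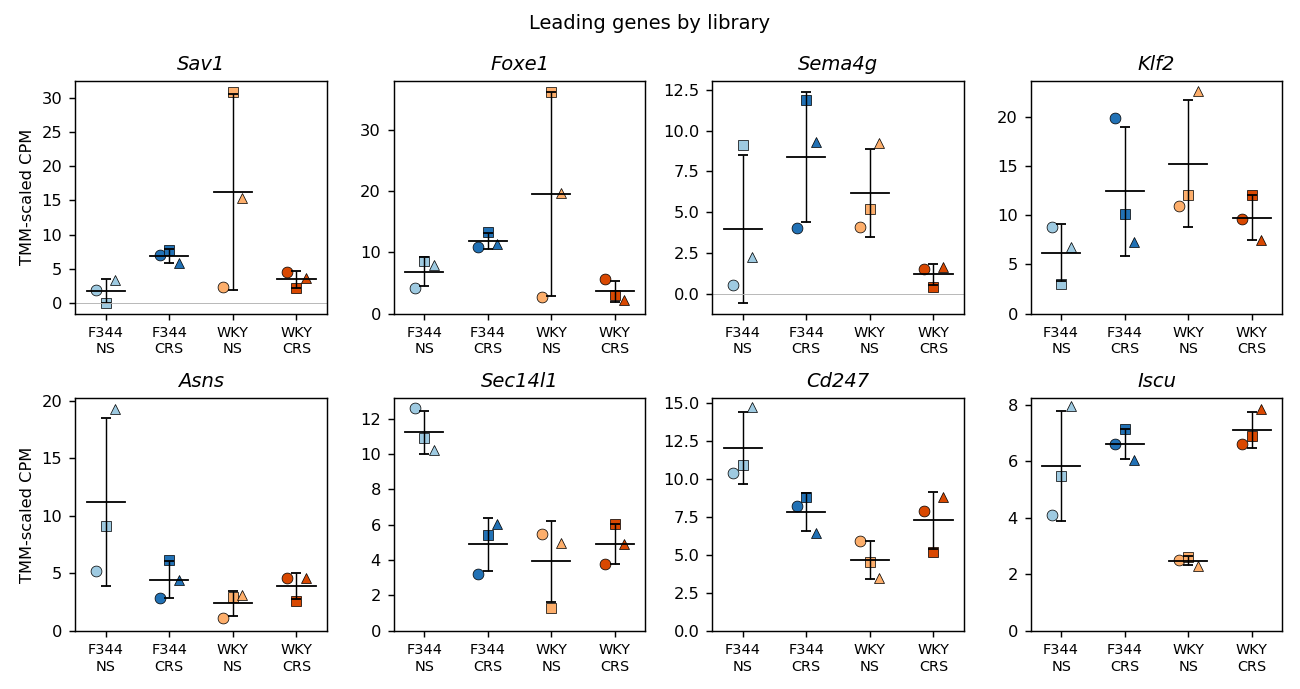
CPM per library (y axis) in the 4 groups (x axis) for leading genes of either direction, with circles, squares and triangles for replicates 1, 2 and 3, a bar at the mean and an error bar of 1 SD. Sav1 and Foxe1 have 2 high libraries and 1 low one in unstressed WKY.

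Genes averaging at least 5 CPM were ranked by p, leaving out placeholder symbols such as those starting LOC or RGD. The 12 with the smallest p and a lower response in WKY were Sav1, Foxe1, Klf2, Cd74, Rem2, Mvp, Pnpla7, Tpm3, Syk, Clu, Pacs1 and Rps9. In all 12 the estimate was positive in F344 and negative in WKY, with differences from -4.20 to -0.94. The libraries of the F344 groups did not overlap for 5 of them and those of the WKY groups for 1, where 11.9% and 10% of all tested genes had such gaps.

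Klf2, a transcription factor that keeps T cells quiescent and controls their trafficking, stood at 8.77, 3.03 and 6.81 CPM in unstressed F344 and 19.9, 10.2 and 7.26 CPM in stressed F344. In WKY it stood at 11, 12 and 22.7 CPM without stress and 9.63, 12.1 and 7.51 CPM after CRS. Groups overlapped in both strains, and the difference was -1.57 (SE 0.561; edgeR, unadjusted p = 0.00823). It was -1.03 without stressed F344 replicate 1. Klf2 overlaps Eps15l1 in the RefSeq annotation. Other genes named here overlap a protein-coding neighbour too: Rps9 (Pirb), Clu (Scara3), Arhgef3 (Il17rd), Ube2b (Cdkl3), Myd88 (Acaa1a), RT1-CE14 (RT1-CE12), Slc40a1 (Plp2l1, Asnsd1 and Asdurf) and Gp1ba (Chrne and Slc25a11). With the strand setting of the counting not given, reads of an overlap cannot be assigned to either gene.

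Rem2, a small GTPase that inhibits voltage-gated calcium channels, was carried by WKY. It stood at 8.46, 20.8 and 11.5 CPM in unstressed WKY and 4.06, 6.04 and 4.57 CPM in stressed WKY, with no overlap. In F344 it ranged from 6.85 to 26.1 CPM without stress and from 10.3 to 30.2 CPM after CRS. The difference was -1.55 (SE 0.612; edgeR, unadjusted p = 0.016), with -1.48 of it in WKY and 0.06 in F344, and was -1.01 without stressed F344 replicate 2.

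Syk, the tyrosine kinase that couples B cell and Fc receptors to the cell interior, stood at 15.3, 5.46 and 3.40 CPM in unstressed F344 and 17.2, 12.9 and 16.3 CPM after CRS. WKY levels were 13.9, 11.4 and 12.7 CPM without stress and 10.1, 11.6 and 8.49 CPM after CRS. Unstressed F344 replicate 1 stood with the stressed libraries, and leaving it out moved the difference from -1.06 (SE 0.501) to -2.09. Clu, the secreted chaperone clusterin, which platelets also store, stood at 4.93, 0.607 and 2.27 CPM in unstressed F344 against 6.65 to 8.42 CPM after CRS. In WKY it stood at 3.07 to 8 against 5.22 to 6.90 CPM. Here too unstressed F344 replicate 1 was the highest of its group, but it lay below every stressed F344 library. Its difference was -1.28 (SE 0.608), or -2.65 without unstressed F344 replicate 1.

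Pnpla7 and Tpm3 varied less between replicates. Pnpla7, a lysophospholipase, stood at 7.28 to 8.22 CPM in unstressed F344 and 9.16 to 12.6 CPM in stressed F344, against 11.7 to 17.3 and 5.61 to 12.1 CPM in WKY (difference -1.04, SE 0.478). Tpm3, a tropomyosin of the actin cytoskeleton, stood at 6.81 to 12.1 and 13.2 to 16.8 CPM in F344 and at 15.8 to 18.5 and 11.2 to 16 CPM in WKY (difference -0.94, SE 0.441). For each of these genes the F344 groups stood apart and the WKY groups overlapped. Mvp, the main protein of vault particles, Pacs1, a trafficking adaptor, and Rps9, a small-subunit ribosomal protein, had differences of -1.33 (SE 0.572), -1.14 (SE 0.546) and -1.05 (SE 0.503). For those 3 genes groups overlapped in both strains.

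Among genes with a higher response in WKY, the symbol rule left out LOC102723236 (difference 1.82, SE 0.662; edgeR, unadjusted p = 0.00909). The 12 genes ranked in this direction were Asns, Sec14l1, Stat5b, Etnk1, Cd247, Dusp1, Heca, Qrich1, Iscu, Arhgef3, Cd36 and Picalm. Their differences ran from 1.04 to 1.98. In all 12 the estimate was positive in WKY, and in 11 it was negative in F344. Groups did not overlap for 4 of them in F344 and 3 in WKY, against 11.9% and 10% of all tested genes. Before CRS the strains stood farther apart than after it for 10 of the 12, against 8 of the 12 genes with a lower response in WKY, 65 of the 106 (61.3%) and 1431 of all 2781 (51.5%). A wide gap at either time widens the contrast, so the selection bears on these counts. The gap before CRS includes the least covered libraries, unstressed F344 replicates 2 and 3. Their part in these counts was not tested.

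Asns, the enzyme that makes asparagine and a target of the amino acid response, stood at 5.21, 9.10 and 19.3 CPM in unstressed F344 and 2.81, 6.10 and 4.44 CPM in stressed F344. In WKY it stood at 1.14, 2.93 and 3.07 CPM without stress and 4.56, 2.59 and 4.57 CPM after CRS. The high value was that of the least covered library, unstressed F344 replicate 3. The difference was 1.98 (SE 0.670; edgeR, unadjusted p = 0.00557), or 1.45 without that replicate.

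Sec14l1, a member of the Sec14 lipid-transfer family, stood at 12.6, 10.9 and 10.2 CPM in unstressed F344 and 3.21, 5.43 and 6.05 CPM in stressed F344, with no overlap. WKY levels were 1.30 to 5.49 CPM without stress and 3.80 to 6.04 CPM after CRS. The change was -1.24 in F344 and 0.26 in WKY, a difference of 1.5 (SE 0.575; edgeR, unadjusted p = 0.013).

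Stat5b showed the reverse layout. This transcription factor carries signals from the interleukin-2, growth hormone and prolactin receptors. It stood at 3.89, 3.26 and 6.92 CPM in unstressed WKY and 7.6, 15.1 and 9.14 CPM in stressed WKY, with no overlap, while F344 stood at 7.28 to 12.5 and 6.78 to 9.68 CPM. The change was 1.18 in WKY and -0.13 in F344 (difference 1.30, SE 0.522; edgeR, unadjusted p = 0.0173).

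Iscu, the scaffold on which iron-sulphur clusters are assembled, was the one of the 12 with the same sign in both strains. Unstressed WKY libraries were tightly grouped at 2.52, 2.60 and 2.31 CPM, and stressed WKY libraries stood at 6.59, 6.90 and 7.83 CPM. F344 stood at 4.11, 5.46 and 7.94 CPM without stress and 6.62, 7.12 and 6.05 CPM after CRS. After CRS the strains overlapped, whereas every unstressed WKY library lay below every unstressed F344 library. The change was 1.5 in WKY and 0.31 in F344 (difference 1.19, SE 0.544; edgeR, unadjusted p = 0.0347).

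Dusp1 and Cd247 belong to the stress and T cell lists. Dusp1, a phosphatase that switches off MAP kinases and is induced by glucocorticoids, stood at 10.1, 12.1 and 22.7 CPM in unstressed F344 and 7.42, 8.14 and 10.1 CPM in stressed F344, groups that were apart by less than the worth of 1 count. It stood at 7.55, 8.46 and 13.1 CPM in unstressed WKY and 10.9, 8.63 and 20.6 CPM in stressed WKY. The difference was 1.18 (SE 0.515), or 0.73 without stressed WKY replicate 3. Cd247, the zeta chain of the T cell receptor complex, stood at 10.4 to 14.8 and 6.45 to 8.82 CPM in F344, without overlap, and at 3.46 to 5.95 and 5.18 to 8.81 CPM in WKY (difference 1.20, SE 0.495).

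Etnk1, which starts phosphatidylethanolamine synthesis, stood at 6.81 to 9.10 and 4.01 to 5.44 CPM in F344, apart from each other, and at 3.89 to 6.19 and 6.04 to 8.36 CPM in WKY (difference 1.25, SE 0.504). Arhgef3 was apart in WKY, at 3.26 to 8.07 CPM without stress and 9.49 to 11.7 CPM after CRS (difference 1.08, SE 0.506). Heca, Qrich1 and Picalm, an endocytic clathrin adaptor, had differences of 1.09 (SE 0.485), 1.13 (SE 0.512) and 1.04 (SE 0.505) with overlap in both strains. Cd36, a scavenger receptor and fatty acid transporter of monocytes and platelets, stood at 2.74, 11.5 and 14.8 CPM in unstressed F344 against 4.01 to 6.05 CPM after CRS. Its difference of 1.38 (SE 0.664) was -0.23 without unstressed F344 replicates 2 and 3.

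Responses in opposite directions were also read library by library. A gene qualified where every stressed library lay on 1 side of every unstressed library in WKY and on the other side in F344. This held for 8 genes that were up in WKY and down in F344 (0.288% of the 2781) and for 3 that were down in WKY and up in F344 (0.108%). For comparison, 8 genes (0.288%) were up in both strains and 12 (0.431%) down in both by the same reading. With any 1 library left out the counts were 8 to 18 and 10 to 23, and smaller groups overlap less often. The 8 were Ap1b1, Irf5, Ube2b, Prelid1, Eps15, Tatdn2, Ganab and Mbp, and the 3 were Sema4a, Nrd1 and Arhgdia. Of these 11, 10 averaged under 5 CPM and were named after their values were seen; Arhgdia was above it. In 9 of the 11, all but Ap1b1 and Prelid1, the groups of at least 1 strain were apart by less than the worth of 1 count.

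Irf5 is the transcription factor that drives inflammatory cytokine genes downstream of Toll-like receptors. It stood at 4.38, 7.28 and 3.40 CPM in unstressed F344 and 2.41, 2.37 and 3.23 CPM in stressed F344. It stood at 3.43, 1.95 and 3.07 CPM in unstressed WKY and 6.08, 4.75 and 5.22 CPM in stressed WKY. The change was -0.91 in F344 and 0.91 in WKY (difference 1.82, SE 0.600; edgeR, unadjusted p = 0.00446). The nearest libraries in F344, unstressed replicate 3 and stressed replicate 3, lay closer together than 1 count of the former.

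Ap1b1, a subunit of the clathrin adaptor AP-1, stood at 3.03 to 4.66 and 1.70 to 2.21 CPM in F344 and at 1.54 to 1.83 and 2.61 to 4.82 CPM in WKY (difference 2.19, SE 0.712). Ube2b, a ubiquitin-conjugating enzyme of the DNA damage response, stood at 3.29 to 6.81 and 1.60 to 2.22 CPM in F344 and at 2.28 to 3.46 and 3.80 to 5.22 CPM in WKY (difference 1.94, SE 0.657). Eps15, an endocytic adaptor, and Prelid1, a carrier of phosphatidic acid in mitochondria, had differences of 1.59 (SE 0.588) and 1.40 (SE 0.539). Prelid1 had the tightest unstressed F344 group of the 8, at 5.75, 5.46 and 5.67 CPM, against 2.71 to 4.21 CPM after CRS. Mbp, the myelin basic protein gene (1.28, SE 0.584), Tatdn2 (1.13, SE 0.708) and Ganab (1.12, SE 0.577), the glucosidase II subunit of glycoprotein folding, completed the 8.

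Arhgdia stood at 11.2, 6.07 and 6.81 CPM in unstressed F344 and 11.4, 12.2 and 13.9 CPM in stressed F344. It stood at 11, 11.1 and 9.99 CPM in unstressed WKY and 7.86, 9.49 and 9.14 CPM in stressed WKY. The gaps between groups were small in both strains, and the difference was -0.83 (SE 0.461; edgeR, unadjusted p = 0.0811), or -1.28 without unstressed F344 replicate 1. Sema4a, a semaphorin of immune cells, stood at 4.11, 0.607 and 0 CPM in unstressed F344 and 4.21 to 6.85 CPM after CRS, against 3.26 to 3.89 and 2.03 to 3.02 CPM in WKY. Its difference of -1.67 (SE 0.715) was -4.14 without unstressed F344 replicate 1. Nrd1, a metalloendopeptidase, stood at 4.25 to 5.21 and 5.21 to 6.85 CPM in F344 and at 2.97 to 5 and 2.16 to 2.61 CPM in WKY (difference -1.08, SE 0.578).

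**Figure D3:**
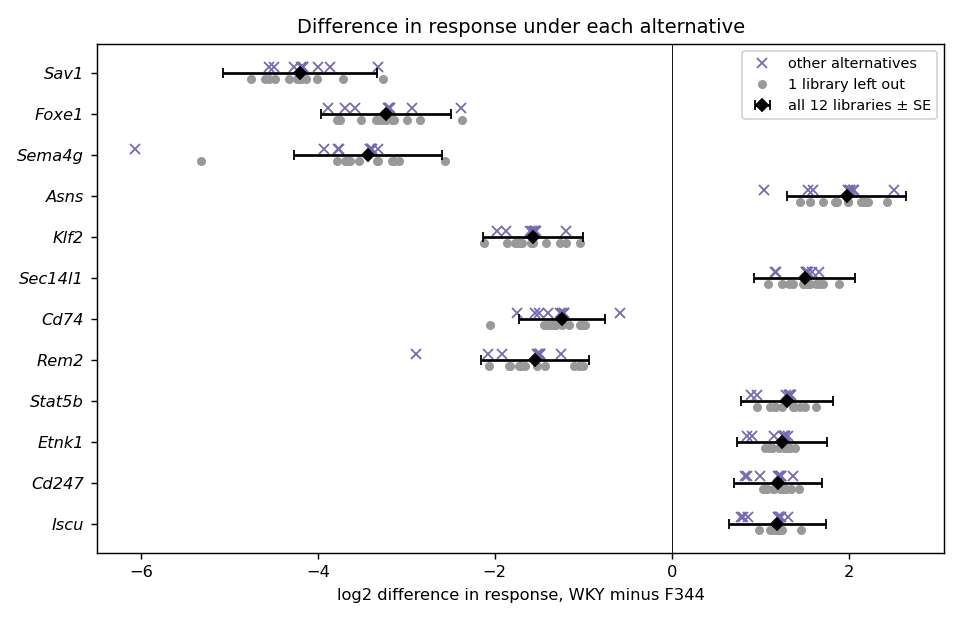
Log2 difference in response, WKY minus F344 (x axis), for 12 leading genes (y axis). Diamonds with bars give the estimate from all 12 libraries ± SE, grey points the values with 1 library left out and crosses the other alternatives; none of these genes crosses 0, and Sav1 stays between -4.76 and -3.27.

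The other 4 genes with estimates of the same sign and unequal size had fewer reads than Iscu. Siglec5, an inhibitory sialic acid receptor of myeloid cells, had 18, 8 and 3 counts in unstressed F344 and 28, 13 and 16 in stressed F344. The stressed F344 libraries were deeper, and in CPM Siglec5 stood at 3.40 to 4.93 and 3.23 to 5.62. Its change was -0.05 in F344 and -2.61 in WKY. It had 5, 8 and 2 counts in unstressed WKY and 1, 0 and 1 in stressed WKY (edgeR, unadjusted p = 0.0164). Oasl, an interferon-induced antiviral protein, had 2, 1 and 0 counts in unstressed F344 and 21, 8 and 12 in stressed F344. In WKY it had 21, 10 and 4 and then 9, 14 and 10 (edgeR, unadjusted p = 0.0126). The change of Oasl was 2.62 in F344 and 0.14 in WKY. The low group was unstressed F344 for Oasl and stressed WKY for Siglec5. Rbsn, an endosomal Rab effector, stood at 2.69 to 5.53 CPM in unstressed WKY and 0.326 to 1.52 CPM in stressed WKY (difference -1.68, SE 0.802), with F344 at 1.82 to 6.81 and 2.01 to 3.63 CPM. Timm10b, a chaperone of mitochondrial import, stood at 2.19, 12.7 and 2.27 CPM in unstressed F344 and 0.201, 0.339 and 0.605 CPM after CRS, against 0.326 to 5.03 and 0.653 to 2.59 CPM in WKY (difference 2.80, SE 1.25, or 1.48 without unstressed F344 replicate 2).

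Gene lists were then described by their counts and medians; 0 members passed in any of them. All tested genes had 1358 positive and 1423 negative differences, with a median of -0.02.

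MHC class II genes had the lowest median of the lists with at least 5 tested members. Their products present extracellular peptides to CD4 T cells on B cells, monocytes and dendritic cells. All 6 tested members had negative differences, with a median of -1.16. The median change was 0.14 in F344, where 5 of 6 were positive, and -0.92 in WKY, where 0 of 6 were. Over the alternatives the median difference ran from -1.47 to -0.68, the latter without unstressed F344 replicates 2 and 3. Only Cd74 was among the 106 genes.

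Cd74, the invariant chain that fills the class II groove until it reaches the endosome, was the most abundant. It stood at 36.2, 14.6 and 10.2 CPM in unstressed F344 and 37.5, 28.1 and 33.9 CPM in stressed F344. It stood at 32.7, 47.9 and 25.4 CPM in unstressed WKY and 26.9, 25.5 and 15 CPM in stressed WKY. Groups overlapped in both strains, with unstressed F344 replicate 1 again at the level of the stressed libraries. The change was 0.59 in F344 and -0.65 in WKY (difference -1.24, SE 0.485; edgeR, unadjusted p = 0.0148), and the difference was -2.05 without that replicate and -0.59 without unstressed F344 replicates 2 and 3.

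Ciita, the transactivator that switches on class II genes, stood at 8.22, 4.25 and 5.67 CPM in unstressed F344 and 6.82, 8.48 and 7.06 CPM in stressed F344. It stood at 8.69, 7.81 and 5.38 CPM in unstressed WKY and 5.58, 4.75 and 1.63 CPM in stressed WKY. Its difference was -1.07 (SE 0.554; edgeR, unadjusted p = 0.0609), of which -0.87 lay in WKY, and was -0.71 without stressed WKY replicate 3. The classical chains RT1-Db1, RT1-Ba and RT1-Da, rat forms of the DR and DQ molecules, had differences of -1.59 (SE 0.899), -0.79 (SE 0.657) and -0.51 (SE 0.490). Single libraries moved them: RT1-Db1 was -3.10 without stressed WKY replicate 3, RT1-Ba -1.49 and -0.43 without stressed WKY replicates 1 and 2, and RT1-Da -0.84 and -0.33 without unstressed F344 replicate 1 and unstressed WKY replicate 2. RT1-DMb, part of the peptide exchanger DM, had -1.25 (SE 0.834). Unstressed WKY libraries stood at 0.769 to 4.12 CPM for RT1-Db1, 3.46 to 6.84 for RT1-Ba, 8.45 to 13 for RT1-Da and 1.15 to 4.56 for RT1-DMb. Stressed WKY libraries stood at 0 to 2.28 CPM for RT1-Db1, 0.431 to 3.80 for RT1-Ba, 6.85 to 9.13 for RT1-Da and 1.29 to 1.77 for RT1-DMb, so the groups overlapped for each of the 4. RT1 genes are near-identical copies, so reads could be split between them or lost as ambiguous.

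The summed class II level was 30.6 to 77.0 CPM in unstressed F344, 62.7 to 72.6 in stressed F344, 51.1 to 89.8 in unstressed WKY and 33.3 to 54.8 in stressed WKY. Summed B cell markers stood at 34.0 to 50.7, 42.7 to 43.5, 41.5 to 50.5 and 33.0 to 45.9 CPM in the same order, and monocyte markers at 81.3 to 105, 108 to 115, 146 to 164 and 154 to 192 CPM. None of the 17 B cell and 16 monocyte markers was at 0 in all libraries. Of 9 tested B cell markers 5 had negative differences (median -0.36), as had 5 of 9 monocyte markers (median -0.04). The part of either cell type in the class II values was not tested.

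**Figure D4:**
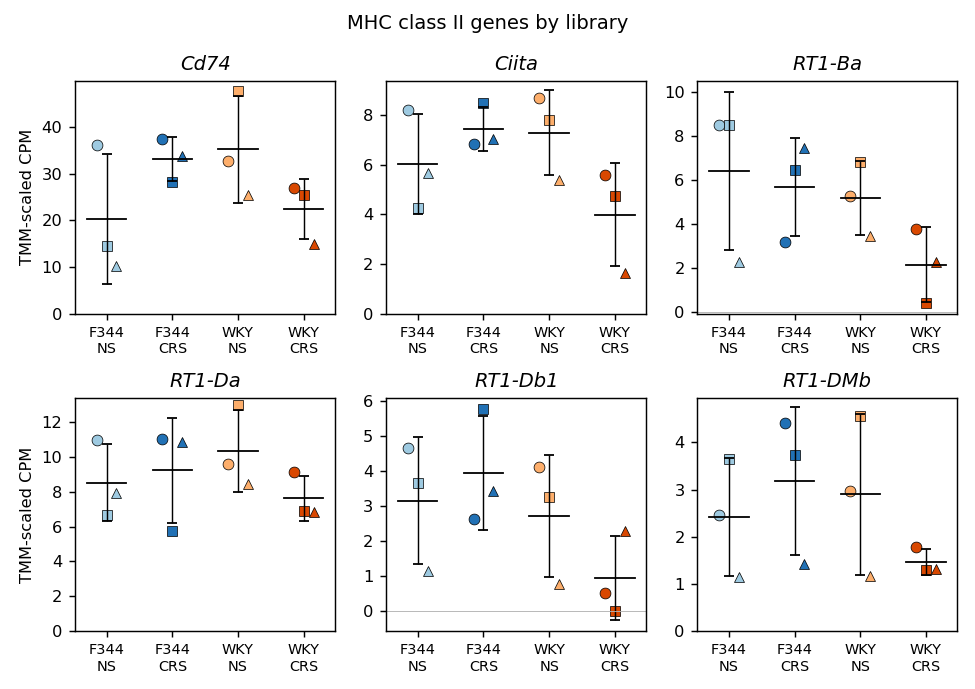
CPM per library (y axis) for the 6 tested MHC class II genes in the 4 groups (x axis), with circles, squares and triangles for replicates 1, 2 and 3, a bar at the mean and an error bar of 1 SD. In each gene the mean is lower in stressed than in unstressed WKY.

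Class II promoters commonly hold a Y box, an inverted CCAAT element bound by NF-Y, through which Ciita acts. The 3 tested members whose windows hold this element are shown. Their differences were negative, but so were those of all 6 tested members, Cd74 included. Within F344 the change was -0.34 in RT1-Ba and 0.20 in Ciita. The part of Ciita in these values was not tested. The capitals mark CTGATTGG, searched on both strands, and lie 46, 52 and 83 bases before the start in RT1-Ba, RT1-Da and RT1-Db1. In GRCr8 the windows are chr20:4576807-4577106 (plus strand), chr20:4515165-4515464 (plus strand) and chr20:4560113-4560412 (minus strand), per RefSeq.

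RT1-Ba: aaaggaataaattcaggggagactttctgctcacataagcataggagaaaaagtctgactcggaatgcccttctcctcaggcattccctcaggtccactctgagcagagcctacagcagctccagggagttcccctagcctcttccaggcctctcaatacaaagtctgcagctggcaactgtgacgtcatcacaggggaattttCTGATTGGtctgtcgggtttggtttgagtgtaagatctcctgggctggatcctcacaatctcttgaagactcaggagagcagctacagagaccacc

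RT1-Da: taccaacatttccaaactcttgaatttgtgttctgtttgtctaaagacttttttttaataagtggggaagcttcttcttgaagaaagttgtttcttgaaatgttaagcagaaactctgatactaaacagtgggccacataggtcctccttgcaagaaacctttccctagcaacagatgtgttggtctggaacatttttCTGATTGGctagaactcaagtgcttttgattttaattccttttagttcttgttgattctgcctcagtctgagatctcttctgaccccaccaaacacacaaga

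RT1-Db1: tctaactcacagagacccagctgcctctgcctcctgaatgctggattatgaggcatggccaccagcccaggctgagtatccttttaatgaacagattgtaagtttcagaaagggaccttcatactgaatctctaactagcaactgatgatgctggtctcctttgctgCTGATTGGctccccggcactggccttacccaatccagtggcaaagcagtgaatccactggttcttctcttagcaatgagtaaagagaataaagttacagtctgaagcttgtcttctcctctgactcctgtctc

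The same 8 letters are in 3.55% of the 27457 promoters, in 5.08% of those of tested genes and in 2 of the 88 promoters found for the 106 genes (2.27%). Of the 9 class II genes of the list with a promoter entry, 6 hold them. The windows of Cd74, RT1-DMa and RT1-DOb do not.

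MHC class I genes, which present peptides from the cell's interior to CD8 T cells, had 15 negative differences among 17 tested and a median of -0.66. The median change was 0.06 in F344 and -0.52 in WKY. Over the alternatives the median difference ran from -1.01 to -0.41. The former came with library sizes taken outside the 3 most abundant features, where it was -0.60 relative to the median of all genes. The summed class I level was 155 to 184 CPM in unstressed F344 and 175 to 199 in stressed F344. It was 222 to 354 CPM in unstressed WKY and 210 to 263 in stressed WKY, with overlap in both strains. RT1-CE14, a class I heavy chain gene, stood at 4.66, 0.607 and 0 CPM in unstressed F344 and 3.21, 3.39 and 4.64 CPM in stressed F344, against 12.6, 4.56 and 11.9 and then 4.31, 2.16 and 3.26 CPM in WKY. The WKY groups stood apart. The difference was -2.05 (SE 0.709; edgeR, unadjusted p = 0.00652), and -4.68 without unstressed F344 replicate 1. Tap2, a subunit of the peptide transporter that feeds class I molecules, was apart in WKY too, at 5.53 to 6.92 CPM without stress and 1.01 to 3.88 CPM after CRS, while F344 stood at 4.38 to 9.08 and 4.44 to 7.82 CPM (difference -1.23, SE 0.609, or -0.76 without stressed WKY replicate 1).

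Interferon-stimulated genes had no shared direction: 19 of 33 tested differences were negative, with a median of -0.18 that was 0.03 without unstressed WKY replicate 1. Irf7, the factor that amplifies type I interferon, stood at 55.6, 59.5 and 49.9 CPM in unstressed F344 and 77.2, 86.5 and 100 CPM in stressed F344, and at 217 to 271 and 250 to 359 CPM in WKY. The change was 0.67 in F344 and 0.27 in WKY (difference -0.40, SE 0.399; edgeR, unadjusted p = 0.326), far smaller than the gap between the strains. Parp14, an ADP-ribosyltransferase, had a difference of -0.89 (SE 0.497), at 4.54 to 6.67 and 8.48 to 9.83 CPM in F344 and 11 to 15.8 and 5.61 to 13.2 CPM in WKY. Inflammatory and NF-kappaB genes had 8 of 11 negative differences (median -0.16, or -0.57 without unstressed F344 replicate 1 and 0.16 without replicates 2 and 3 of that group). Among them Myd88, the adaptor of Toll-like and interleukin-1 receptors, stood at 1.21 to 2.27 and 3.05 to 4.44 CPM in F344, apart, and at 2.93 to 5.38 and 2.03 to 2.94 CPM in WKY (difference -1.83, SE 0.704; edgeR, unadjusted p = 0.0135). Il1b, the interleukin-1 beta gene, had a difference of 0.31 (SE 0.514).

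Genes responsive to glucocorticoids had 6 positive and 7 negative differences among 13 tested, with a median of -0.01, beside a median change of -0.03 in F344 and 0.28 in WKY. Tsc22d3, the anti-inflammatory protein GILZ, stood at 9.59 to 17.0 and 9.03 to 12.7 CPM in F344 and at 8.46 to 16.5 and 8.63 to 21.9 CPM in WKY (difference 0.76, SE 0.505, or 0.41 without stressed WKY replicate 3). Fkbp5, a chaperone that restrains the glucocorticoid receptor, had -0.58 (SE 0.679; -1.23 and -0.12 without stressed and unstressed WKY replicate 1), Per1, a clock gene, -0.14 (SE 0.805), and Nr3c1, the receptor itself, 0.05 (SE 0.534). The intervals of the last 3 were -1.96 to 0.80, -1.77 to 1.49 and -1.03 to 1.13, which leaves room for differences of log2 1 in either direction in Per1 and Nr3c1. Zbtb16 had 12 counts over the 12 libraries and was not tested. Cxcr4, the chemokine receptor that retains leukocytes in bone marrow, had the largest difference of the list at 1.75 (SE 0.694; edgeR, unadjusted p = 0.0163), or 2.77 and 1.16 without unstressed WKY replicates 3 and 1. It stood at 4.54 to 6.07 and 2.37 to 4.03 CPM in F344 and at 0.686 to 6.53 and 4.57 to 8.20 CPM in WKY. The letters TGTTCT, the core of the glucocorticoid response element, searched on both strands, were in 6 of the 88 promoters found for the 106 genes (6.82%) and in 11.4% of those of all tested genes.

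T cell genes had 9 of 16 negative differences (median -0.03). Members pointed both ways: Ubash3a, a suppressor of T cell receptor signalling, had 1.53 (SE 0.668; 0.92 without stressed WKY replicate 1), and Zap70, the kinase that binds the zeta chain, -0.91 (SE 0.616; -1.67 without unstressed F344 replicate 1). Platelet genes were positive in all 10 tested members in each strain, with medians of 0.56 in F344 and 0.50 in WKY, and the median difference was -0.16, or -0.78 when unstressed F344 replicate 1 was left out and 0.09 when unstressed WKY replicate 1 was. Gp1ba, a chain of the platelet receptor for von Willebrand factor, had -1.16 (SE 0.738; -2.11 without unstressed F344 replicate 1) and Cd9, a tetraspanin, 0.53 (SE 0.500; -0.10 without that replicate). Neutrophil genes had 4 of 7 positive differences (median 0.01). Among them Mmp9, a gelatinase stored in neutrophil granules, had 81 counts over the 12 libraries. Mmp9 stood at 3.40 to 5.46 and 0.339 to 2.41 CPM in F344, apart, and at 1.60 to 1.92 and 1.52 to 2.59 CPM in WKY (difference 2.08, SE 0.884; edgeR, unadjusted p = 0.0244). The more abundant S100a9 and Csf3r had differences of -0.59 (SE 0.535) and -0.45 (SE 0.432).

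Erythroid lists leaned to a higher response in WKY. Erythroid regulators had 11 of 14 positive differences (median 0.34), heme and iron genes 10 of 15 (0.33), red cell membrane genes 8 of 13 (0.37), antioxidant genes 6 of 9 (0.40) and globin genes 4 of 6 (0.27), and with library sizes taken outside the 3 most abundant features these medians were -0.09, -0.19, -0.20, 0.04 and -0.25. That scaling put the median of all genes at -0.41, above which the same medians lay by 0.31, 0.22, 0.20, 0.44 and 0.15. Cat, the catalase gene, stood at 36.7, 94.6 and 94.2 CPM in unstressed F344 and 49.9, 51.6 and 62.7 CPM in stressed F344, and at 55.3 to 62.3 and 72.0 to 81.6 CPM in WKY. The high values were those of unstressed F344 replicates 2 and 3, the 2 least covered libraries. The difference of 0.84 (SE 0.429) was -0.21 without both, and that of Gpx1, a glutathione peroxidase, was 0.82 (SE 0.483) with them and -0.23 without (0.21 without replicate 2 alone). The list medians without both were -0.09 for erythroid regulators, -0.41 for heme and iron genes, -0.54 for red cell membrane genes, -0.21 for antioxidant genes and -0.58 for globin genes. Within WKY, Slc40a1, the iron exporter ferroportin, stood at 9.60, 6.19 and 4.23 CPM without stress and 13.2, 17.7 and 19.6 CPM after CRS, without overlap, against 3.40 to 6.07 and 3.81 to 8.47 CPM in F344 (difference 0.98, SE 0.545; edgeR, unadjusted p = 0.0817). Nfe2l2, the antioxidant transcription factor Nrf2, was apart in WKY at 0.651 to 1.14 and 2.79 to 4.31 CPM, with F344 at 1.82 to 3.29 and 1.41 to 2.37 CPM (difference 2.26, SE 0.879).

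Ribosomal protein genes had 46 of 75 negative differences (median -0.08), and oxidative phosphorylation genes 10 of 12 (median -0.21). Rpl27, a large-subunit ribosomal protein, had the largest difference among ribosomal genes at 2.84 (SE 0.853; edgeR, unadjusted p = 0.00201), at 3.01, 7.89 and 10.2 and then 2.62 to 3.73 CPM in F344 and 0.326 to 1.83 and 0.431 to 5.58 CPM in WKY. ER stress and amino acid response genes, which include Asns, had 6 of 10 positive differences (median 0.36; -0.08 with library sizes taken outside the 3 most abundant features, which is 0.33 above the median of all genes there), with Hspa5, the main ER chaperone, at 0.84 (SE 0.627), or 0.46 without unstressed WKY replicate 1. Hippo pathway genes had 4 of 5 negative differences (median -0.46), Sav1 among them, and heat shock genes 4 of 5 (median -0.26).

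**Figure D5:**
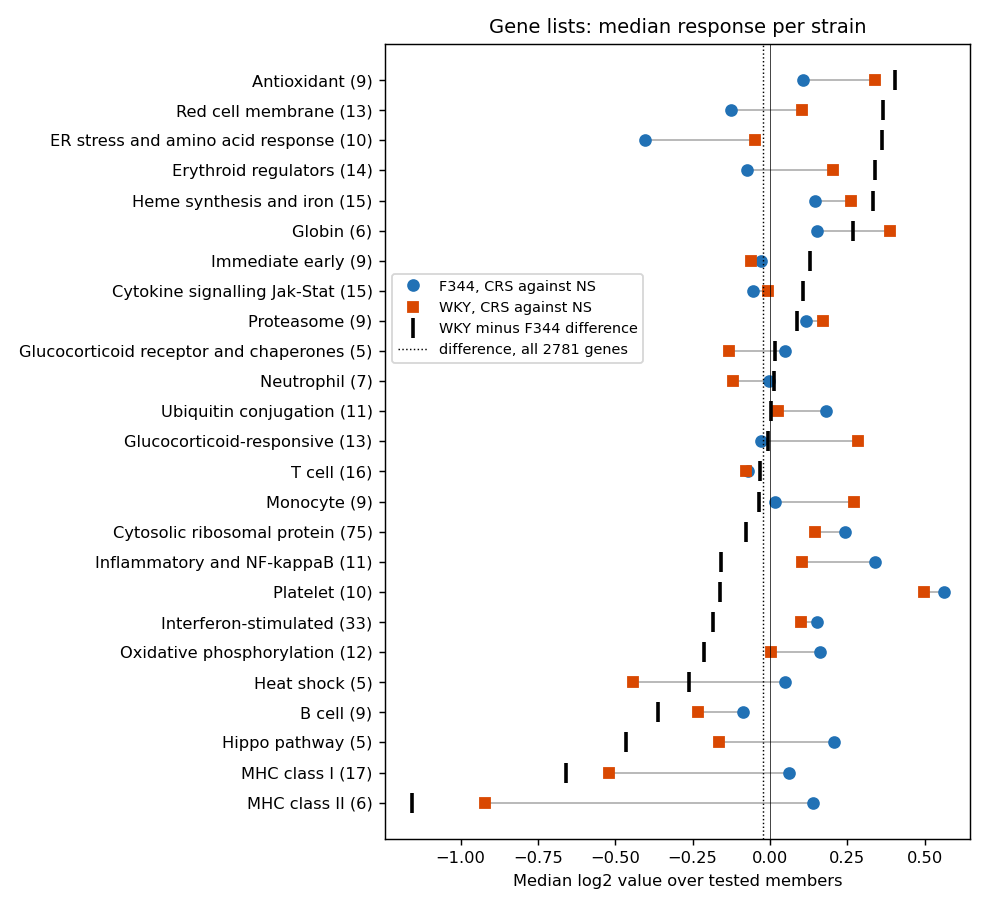
Median log2 change after CRS in F344 (circles) and in WKY (squares) and median difference between them (black ticks) on the x axis, for each gene list with at least 5 tested members (y axis, number tested in brackets); the dotted line is the median difference of all genes. MHC class II and class I genes have the lowest WKY medians beside F344 medians of 0.14 and 0.06, whereas platelet genes stand at 0.56 and 0.50.

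A pair of genes that ranked high within the strains had like changes in both. Ppp4r2, a regulatory subunit of protein phosphatase 4, stood at 10.7 to 15.9 and 3.61 to 6.05 CPM in F344 and at 7.32 to 20.0 and 4.75 to 6.2 CPM in WKY. Groups were apart in each strain, with changes of -1.5 and -1.18 and a difference of 0.32 (SE 0.531, 95% interval -0.75 to 1.40). Npy, the gene of neuropeptide Y, a transmitter of sympathetic nerves, stood at 19.3 to 52.6 and 64.1 to 89.5 CPM in F344 and at 19.6 to 40.7 and 39.8 to 90.6 CPM in WKY. Its changes were 1.21 and 1.06, a difference of -0.15 (SE 0.486, 95% interval -1.14 to 0.83). Neither gene passed within a strain, and both intervals hold differences of either sign.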

How the data were processed

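Whole-blood RNA of 12 libraries was analysed, 3 in each of 4 groups read from the sample titles. The authors deposited whole-number read counts per gene for each library, not normalised, for 17337 genes. Build rn6 and the tools TopHat2 2.1.0, Cufflinks 2.2.1 and cutadapt 1.14 appear in the submitters' processing notes, without roles. How reads were counted, with which annotation and strand rule, is not given in the sources used here. Rows that name no gene took 80.9% to 86.6% of all counts (ambiguous reads alone 78.3% to 83.6%) and were left out, so overlapping or duplicated genes are uncertain.

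Counts were tested with edgeR 4.0.16 (R 4.3.3, TMM, filterByExpr with a minimum count of 10, quasi-likelihood test) in 1 fit of 4 group means. P-values were adjusted over 2781 genes by Benjamini-Hochberg, with a threshold of 0.05. The step was tested on simulated data. Standard errors came from the log2 difference and its F statistic. DESeq2 1.42.0, limma-voom 3.58.1 with quality weights, other scalings and filters, the replicate number as a block and leaving libraries out were the alternatives. Intervals cover the spread between libraries; 1 count was worth 0.201 to 1.14 CPM.

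Named genes were the 12 smallest p-values per direction with a mean of at least 5 CPM, up to 6 per direction with opposite library-wise gaps, 2 members at most of every list in either direction, and Fkbp5, Tsc22d3, Nr3c1, Per1, Zbtb16, Il1b, Irf7, Npy, Ppp4r2 and Sav1. The rankings by p and by gaps left out placeholder symbols, such as those starting LOC or RGD. The contrast, rule and 31 gene lists were chosen with earlier results of these data known. Promoters came from RefSeq (GRCr8), another build than rn6, matched by symbol for 2166 of the tested genes. Foxe1 and Sema4g are named without a promoter.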

Additional observations from a re-analysis of the deposited data

How the results depend on the processing

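Of the 76 genes followed over 21 alternatives, 67 kept the direction of their difference in all that could be run, and no gene with a higher response in WKY was called under any. Most of the 76 were chosen by p or by gaps in these same libraries, which the alternatives reuse. Their kept direction therefore follows in part from the choice. The count of called genes, 0 in the main result, was 3 with library sizes taken outside the 3 most abundant features (Foxe1, Sav1 and Sema4g, all lower in WKY) and the same 3 with no filter on low counts. It was 1 (Sema4g, log2 -6.06) without unstressed F344 replicates 2 and 3, where replicate 1 alone stands for its group and its spread is taken from the others. Leaving out single libraries gave 0 to 2: Sav1 and Foxe1 without unstressed WKY replicate 1, Sema4g without unstressed F344 replicate 2 and Sav1 without stressed WKY replicate 3. Genes at an unadjusted p under 0.05 went from 106 to 257 without unstressed F344 replicate 1, and to 591 of the 15012 genes tested with no filter. Calls within F344, 0 in the main result, were 5 with no filter, 2 with limma-voom and 0 to 5 with 1 library left out (5 without unstressed F344 replicate 1). Within WKY they were 8 with no filter, 2 with library sizes outside the 3 features and 0 to 2 with 1 library left out (2 without unstressed WKY replicate 1). Genes up in WKY and down in F344 library by library, 8 in the main result, were 1 with library sizes outside the 3 features, 5 without globin genes and the 3 features, 54 without unstressed F344 replicates 2 and 3 and 8 to 18 with 1 library left out. Those down in WKY and up in F344, 3 in the main result, were 5, 3, 45 and 10 to 23 in the same order and 37 with no filter. Groups of fewer libraries overlap less often, which by itself raises these counts.

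Without unstressed F344 replicates 2 and 3 the difference was -0.23 for Cd36, -0.21 for Cat, -0.23 for Gpx1, -0.043 for Ppp4r2 and 0.48 for Npy. With library sizes outside the 3 features it was -0.15 for Ppp4r2, -0.050 for Il1b and -0.28 for Nr3c1, and with no filter -0.029, -0.036 and -0.28. Both settings lower the median of all genes: above the median of all genes outside the 3 features the same 3 genes lay by 0.26, 0.36 and 0.13. With limma-voom Per1 stood at 0.33. With 1 library left out the ranges were -0.0079 to 0.51 for Il1b, -0.85 to 0.11 for Npy, -0.66 to 0.59 for Per1, -0.13 to 0.24 for Nr3c1 and -0.10 to 0.76 for Cd9. The cause was not tested. Library sizes outside the 3 features moved the median of all genes from -0.02 to -0.41, and no filter moved it to -0.24. Of the 76 genes, 35 moved by over 1.5 times or turned when 1 library was left out.

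Replicate numbers recur in the groups. Deviations of same-numbered libraries from their group means correlated at -0.09 to 0.20 (median 0.035, 4 of 18 pairs over 0.1). Those of differently numbered libraries correlated at -0.17 to 0.13 (median -0.015, 2 of 36 pairs over 0.1). Of 12 libraries, 1 matched best with its own number throughout. With 3 libraries in a group these values cannot decide whether the numbers pair the libraries. With a replicate block 0 genes were called and 118 had an unadjusted p under 0.05.

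The median gene had 159 counts over the 12 libraries, and a difference had to exceed its interval of about 1.30 on the log2 scale before adjustment. Libraries stand for the groups 3 at a time, so intervals cover counting and library spread only.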
